A study of Mus musculus with 12 samples.

Results

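Ribosomal RNA and satellite repeat rows were followed through 12 count libraries of mouse nasal tissue. The rows were chosen by name: CT010467.2, Gm42418 and AY036118 as ribosomal RNA loci, Gm10800 and Gm10801 as satellite rows, and Gm23935 as a small RNA row. Of these 6 names, 4 were found among the 55487 rows of the deposited table, and Gm42418 and AY036118 were not analysed here. The rows were picked with their day 10 rise in view, so their differences at day 10 are given as a description, and the day 5 comparison was the one tested.

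The study, which is about nasal inflammation and diesel particles by its title, compared 4 vehicle libraries (PBS, labelled day 10), 4 libraries of KDP20 exposure at day 5 and 4 at day 10. Every library came from nasal tissue of male C57BL/6 mice of 6 weeks, labelled as nasal epithelium, and no other treatment or allele was named. Vehicle replicates were numbered 2, 4, 5 and 6, day 5 replicates 5, 6, 7 and 8, and day 10 replicates 1, 2, 3 and 5. Whether libraries came from different animals is not stated, so the tests rest on the spread among these libraries, which may be technical. Vehicle was collected at day 10 only, so exposure and day cannot be told apart in the day 5 comparison.

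Ribosomal RNA is copied in the nucleolus by RNA polymerase I from tandem gene repeats, as a long precursor that is cut into the RNAs of the small and large ribosomal subunits. It makes up most of the RNA of a cell, and libraries are usually made by steps that remove or bypass it. Major satellite DNA is an AT-rich tandem repeat beside the centromeres of mouse chromosomes, held in heterochromatin by histone methyltransferases such as Suv39h1 and Suv39h2, and its transcripts are normally scarce in adult tissue. In both families many genome copies are nearly the same, so a row of a count table stands for whatever reads were placed on that copy.

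In GENCODE M21 (mm10), Gm10801 lies at chr2:98662237-98664083 on the plus strand, with 4 exons of 504 bases in all. Gm10800 lies at chr2:98666547-98667301 on the minus strand, with 5 exons of 660 bases in all. The pair is separated by 2463 bases, and both are annotated as protein-coding models. Gm23935 is a model of 57 bases typed as a miRNA, at chr16:11144125-11144181 on the plus strand. It sits inside the body of Zc3h7a, which runs on the other strand, and touches none of its exons. The identifier of CT010467.2 in the table is not in M21, so this row has no position, strand or sequence here, and only its clone name links it to ribosomal RNA. M21 gives the name CT010467.2 to another identifier, a pseudogene model at chr17:39811786-39812022 whose row was at 0 in all 12 libraries. The sister model CT010467.1 is typed as rRNA in M21, lies at chr17:39846353-39848827 on the minus strand, and had 384 to 2455 counts per library. The loci of Gm42418 (chr17:39846958-39848788, plus strand) and AY036118 (chr17:39847113-39848035, minus strand) fall within that stretch.

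The satellite rows share sequence, which matters because reads from either can also come from a relative. The longest run common to the Gm10800 and Gm10801 transcripts is 86 bases, printed in capitals with its neighbouring bases. Gm21738, a satellite row on chromosome 14 (chr14:19415857-19418930, minus strand), is shown over the same window with the bases equal to that run in capitals.
Gm10800: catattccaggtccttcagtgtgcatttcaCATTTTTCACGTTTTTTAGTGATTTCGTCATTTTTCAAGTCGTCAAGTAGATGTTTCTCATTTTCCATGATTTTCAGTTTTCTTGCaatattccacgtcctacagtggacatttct
Gm10801: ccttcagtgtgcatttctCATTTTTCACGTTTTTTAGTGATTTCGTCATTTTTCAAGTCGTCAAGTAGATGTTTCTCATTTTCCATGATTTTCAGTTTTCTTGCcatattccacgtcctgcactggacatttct
Gm21738: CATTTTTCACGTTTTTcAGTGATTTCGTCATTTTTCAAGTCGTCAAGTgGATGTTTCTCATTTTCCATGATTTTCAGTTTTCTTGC

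In this window Gm21738 equals the run at 97.7% of its bases, with 2 differences. Of the 543 distinct stretches of 31 bases in Gm10800, 137 also occur in Gm10801. Another 11 gene models of the annotation share stretches with Gm10800, namely Gm10717, Gm26870, Gm10719, Gm10718, Gm10721, Gm10722, Gm21738, Gm11168, Gm10715, Gm17535 and Gm10720, with 58 to 138 stretches each. Gm26870 shares them on the opposite strand and was not analysed here. Both rows of the pair are rich in T on the annotated strand, 45.8% for Gm10800 and 47.4% for Gm10801, and hold 35.9% and 34.3% G and C. In Gm10800, 71.3% of positions fall in words of 12 bases that occur again within the transcript, and the commonest spacing is 225 bases. In Gm10801 the share is 26.2% and the spacing 231 bases. Of the 10 related models in the table, 9 have 234 bases as their commonest spacing, which is the unit length known for mouse major satellite, and Gm11168 has 237. The median over 11599 genes with transcripts of like length is 0.0% of positions in repeated words.

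Gm23935 also has near copies in the annotation, shown here because they took almost none of the counts. Capitals mark the run shared with Gm23935.
Gm23935: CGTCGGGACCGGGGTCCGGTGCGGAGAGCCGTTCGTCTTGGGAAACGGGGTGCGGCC
Gm24187: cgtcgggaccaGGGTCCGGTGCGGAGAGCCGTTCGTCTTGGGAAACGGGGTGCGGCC

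Gm24245 and Gm24270 have the same 57 bases as Gm23935, yet their rows held 0 and 0 to 4 counts per library, and Gm24187 held 0 to 1. Gm23935 held 133 to 1843. Nothing in the sources used here says how reads matching several copies were assigned. The sequence is 73.7% G and C. The longest run it shares with CT010467.1 on either strand is 8 bases. No sequence of the whole ribosomal RNA precursor was searched. Whether Gm23935 matches another part of ribosomal RNA was therefore not tested.

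At the chromosome 17 locus the annotated rows read the same bases on opposite strands. The 120 bases around the first base of AY036118 in CT010467.1, with the AY036118 part in capitals, stand beside the matching bases of Gm42418.
CT010467.1: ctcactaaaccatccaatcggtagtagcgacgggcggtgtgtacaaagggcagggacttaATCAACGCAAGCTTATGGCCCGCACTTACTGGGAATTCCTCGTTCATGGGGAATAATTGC
Gm42418: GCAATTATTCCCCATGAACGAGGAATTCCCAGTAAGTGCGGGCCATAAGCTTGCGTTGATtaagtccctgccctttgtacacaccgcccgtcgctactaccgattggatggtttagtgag

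The Gm42418 stretch is the reverse complement of the CT010467.1 stretch. All 923 bases of AY036118 are found whole inside the 1849 bases of the longest CT010467.1 transcript, and 1735 of the 2466 distinct 31-base stretches of CT010467.1 occur in Gm42418 on the other strand. The sources used here do not give the strand setting of the counting, so the strand of the RNA behind each row is not settled.

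Library totals ran from 1658420 to 3227138 counts, with day 10 replicates 3 and 2 the shallowest. Thinned to an equal 1243604 counts outside the 4 rows, libraries had 20844 to 22794 rows with a count, and day 10 replicate 2 had 22529. Of the 19 nasal epithelium markers, Muc5b, a gland mucin, had 428 to 1435 counts and Omp, of olfactory neurons, 22 to 135, while Scgb1a1, of club cells, had 0 to 1. Cyp2f2 had 46 to 331, against 27656 to 84309 in Gm15883 on the strand opposite to it. In their own rows the neutrophil genes S100a8 and Ly6g were at 0 in all libraries, and S100a9 and Mpo at 0 to 2. The haemoglobin gene Hbb-bs was at 0 to 10 and the muscle actin Acta1 at 0 to 11. Gm11505, opposite Mpo, had 0 to 78 counts, and Gm48719, opposite Cd3e, had 2 to 79. Low counts in own rows are thus no reading of which cells were absent.

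CT010467.2 was the dominant member and took between 7.25% and 25.5% of all counts of a library. Its share was 7.25%, 7.40%, 10.1% and 9.87% in vehicle replicates 2, 4, 5 and 6. It was 11.2%, 12.6%, 9.69% and 10.005% in day 5 replicates 5, 6, 7 and 8, and 11.2%, 25.5%, 17.9% and 22.9% in day 10 replicates 1, 2, 3 and 5. Day 10 replicates 2, 3 and 5 stood above every other library, while day 10 replicate 1 lay within the day 5 range. The lowest day 10 share, 11.2%, was above the highest vehicle share, 10.1%. That tests nothing for a row chosen with its day 10 rise in view. The group means were 8.66% ± 1.55 for vehicle, 10.9% ± 1.33 at day 5 and 19.4% ± 6.32 at day 10 (SD, n = 4). Counting error was small beside this spread, with Wilson 95% limits within 0.0658 points of each share. The 4 rows together held 8.71% ± 1.56, 10.9% ± 1.30 and 19.7% ± 6.54, so nearly all of the sum was CT010467.2.

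**Figure D1:**
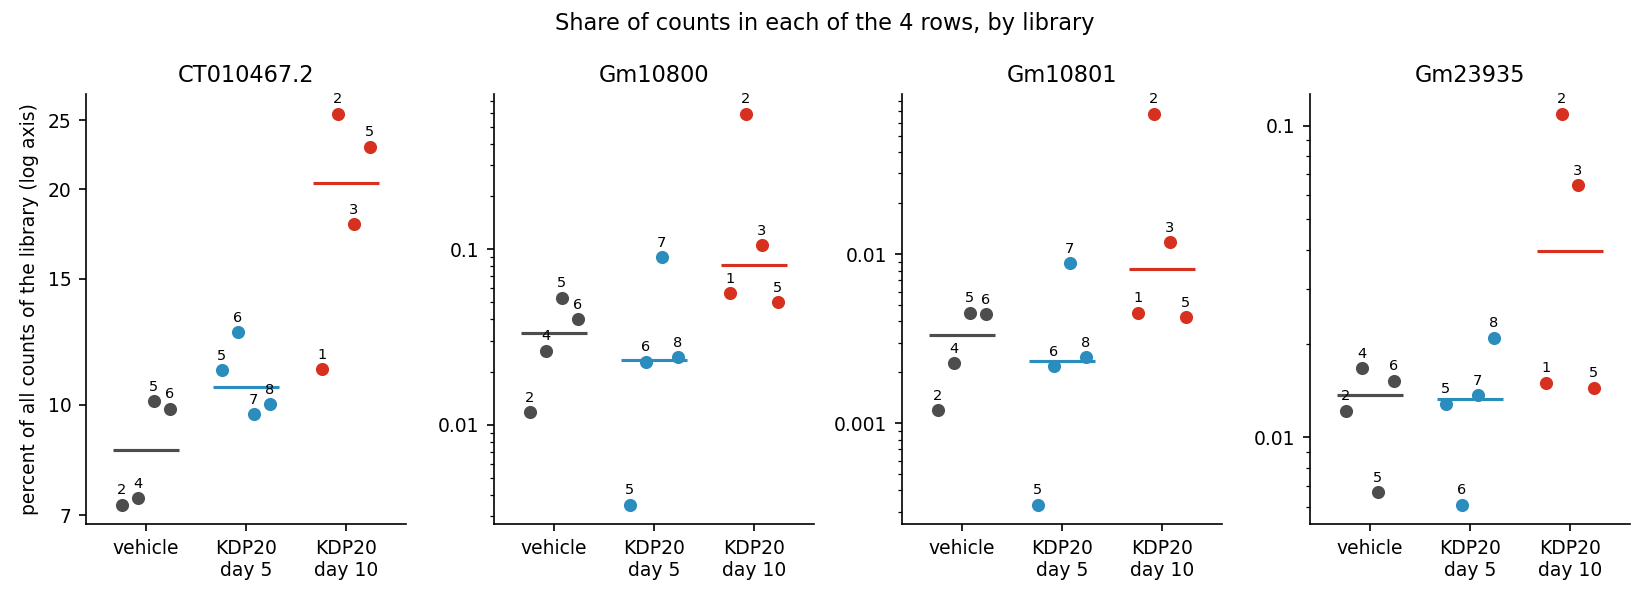
Percent of all counts of each library in the 4 rows, on log axes, by group (1 point per library, numbered by replicate, with the line at the median of 4 libraries). CT010467.2 is high in day 10 replicates 2, 3 and 5, Gm23935 in day 10 replicates 2 and 3, and Gm10800 and Gm10801 reach 0.593% and 0.0679% in day 10 replicate 2.

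Gm10800 held far fewer counts and spread far more. It had 257, 852, 1053 and 842 counts in vehicle replicates 2, 4, 5 and 6, which were 0.0118%, 0.0264%, 0.0528% and 0.0398% of the libraries. Day 5 replicates 5, 6, 7 and 8 had 85, 502, 1914 and 490 counts (0.00350%, 0.0228%, 0.0898% and 0.0242%). Day 10 replicates 1, 2, 3 and 5 had 1088, 10005, 1748 and 1019 counts (0.0562%, 0.593%, 0.105% and 0.05003%). Day 10 replicate 2 stood alone at the top and day 5 replicate 5 at the bottom, and the share spanned 169 times between them. Day 10 replicates 1 and 5 lay within the day 5 range and replicate 3 above it, and by share the lowest day 10 library lay just under the highest vehicle library. In edgeR CPM, that is counts scaled to a common library size after TMM normalization, day 10 ran from 560 to 6869 and vehicle from 107 to 534. The TMM factor was 0.871 in day 10 replicate 5, the lowest of its group by share, and 1.004 in vehicle replicate 5, the highest. Whether the groups overlap thus depends on the scaling, and nothing is read from it for a row chosen on this rise.

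Gm10801, the neighbour of Gm10800, followed it at a lower level. Its counts were 26, 73, 90 and 93 in vehicle replicates 2, 4, 5 and 6 and 8, 48, 188 and 50 in day 5 replicates 5, 6, 7 and 8. In day 10 replicates 1, 2, 3 and 5 they were 87, 1145, 195 and 86. Day 10 replicate 2 was again the highest and day 5 replicate 5 the lowest, and vehicle and day 10 overlapped. The mean share was 0.00309% ± 0.00164 for vehicle, 0.00345% ± 0.00370 at day 5 and 0.0221% ± 0.0307 at day 10 (SD, n = 4), so that the SD at day 10 exceeded the mean.

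The rows of the pair kept a near fixed proportion. Gm10800 had 8.74 to 12.5 counts for each count of Gm10801, a span of 1.43 times, with a median of 10.3. Per base of annotated exon the ratio was 6.67 to 9.55. Gm10801 made up 7.40% to 10.3% of the counts of the pair, and the Wilson 95% interval ran from 4.42% to 16.1% in day 5 replicate 5, the shallowest pair, and from 9.72% to 10.9% in day 10 replicate 2.

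**Figure D2:**
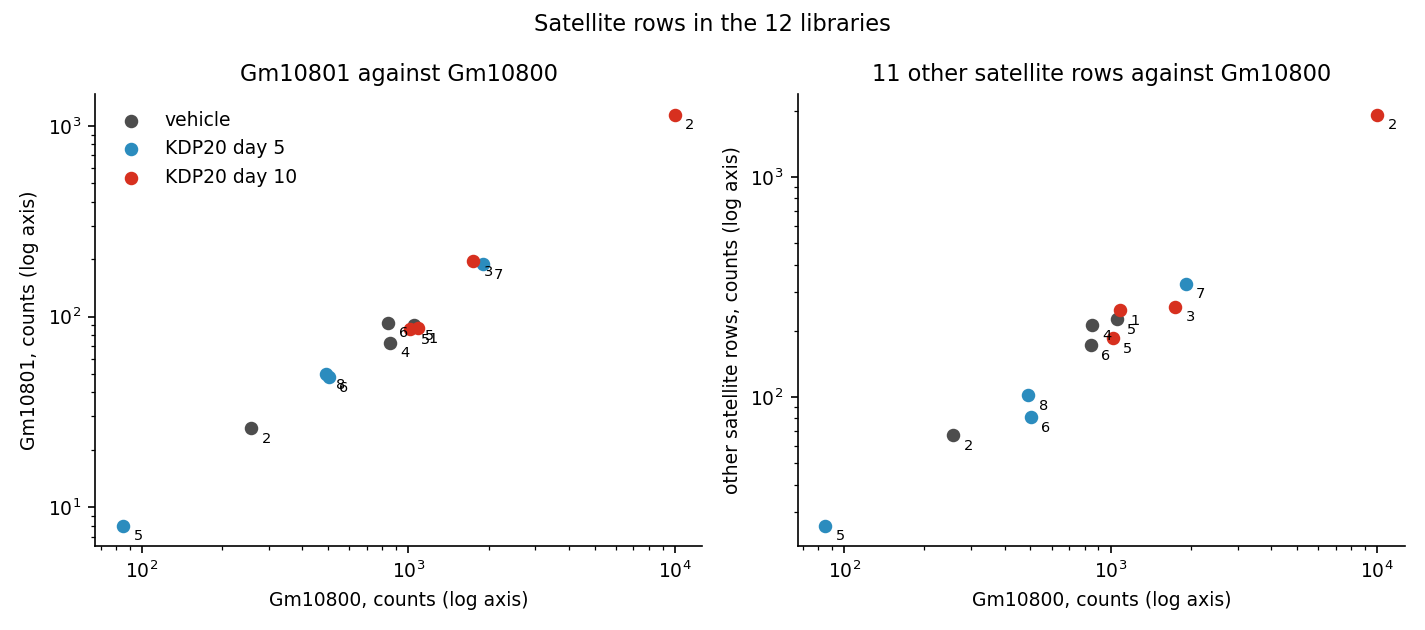
Counts of Gm10801 (left) and of 11 other satellite rows summed (right) against counts of Gm10800 in the 12 libraries, on log axes, coloured by group and numbered by replicate. Points of all 3 groups lie along 1 line, with day 5 replicate 5 at 85 counts of Gm10800 and day 10 replicate 2 at 10005.

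The other satellite rows, from a list of 12 names of which 11 were in the table, moved with the pair. Together they had 14.7 to 30.6 counts for each 100 counts of Gm10800. Gm21738 alone had 9.61 to 17.8 per 100. Of the 11 rows, 10 had their highest share in day 10 replicate 2, and the exception was Gm10714, with 26 counts in all and 0 in that library. That library held 6.58% of all counts of the table, but 50.4% of the Gm10800 counts, 54.8% of Gm10801, 51.0% of Gm21738, 51.1% of Gm10718 and 50.8% of Gm10722. It held 31.2% of the Gm23935 counts, 23.9% of CT010467.1 and 13.6% of CT010467.2. Gm10714 differs from the others in sequence as well, since it has 51.6% G and C in its longest transcript and no repeated words of 12 bases.

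**Figure D3:**
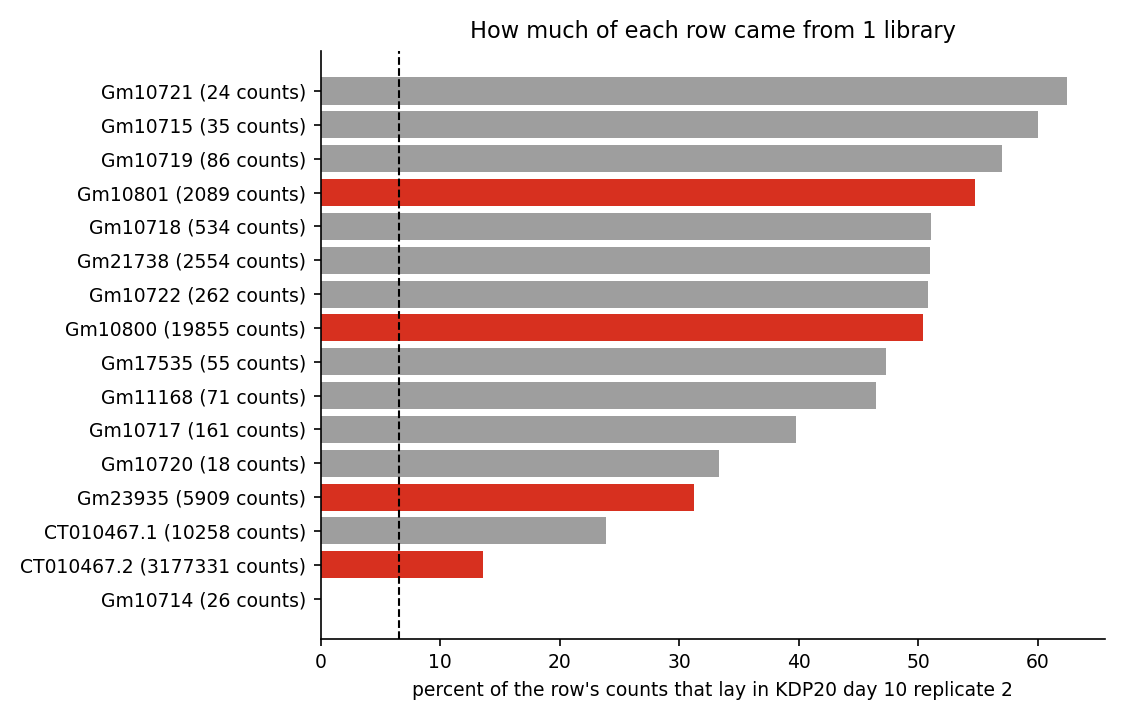
Percent of each row's counts over the 12 libraries that lay in KDP20 day 10 replicate 2 (bars, with the row's total in brackets; red for the 4 chosen rows, grey for related rows), and the share of the whole table in that library (dashed line, 6.58%). All satellite rows but Gm10714 lie far to the right of the line, and CT010467.2 is at 13.6%.

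Gm23935 had a pattern of its own. It had 266, 537, 133 and 321 counts in vehicle replicates 2, 4, 5 and 6 and 311, 134, 291 and 423 in day 5 replicates 5, 6, 7 and 8. It had 290, 1843, 1066 and 294 counts in day 10 replicates 1, 2, 3 and 5. Day 10 replicates 2 and 3 were high, and day 10 replicates 1 and 5 lay within the range of vehicle and day 5 by share, at 0.0150% and 0.0144%. The group means were 0.0127% ± 0.00441 for vehicle, 0.0134% ± 0.00604 at day 5 and 0.0507% ± 0.0455 at day 10 (SD, n = 4).

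CT010467.1, the rRNA model on chromosome 17 that is not among the chosen rows, had its highest shares in the same 2 libraries as Gm23935, with vehicle replicate 4 close to the lower of them. It had 2455 and 1011 counts in day 10 replicates 2 and 3, against 597 and 584 in day 10 replicates 1 and 5. Vehicle replicates 2, 4, 5 and 6 had 499, 1667, 452 and 634 counts, and day 5 libraries had 384 to 748. Its share of counts was 0.0318% ± 0.0137 for vehicle, 0.0274% ± 0.00955 at day 5 and 0.0665% ± 0.0547 at day 10; even its highest share, 0.146% in day 10 replicate 2, was far below the lowest of CT010467.2.

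The rows moved together most closely within the satellite family. CT010467.1 also ran with the satellite rows, while CT010467.2 ran less with each of the other rows. Pearson r of log2 CPM over the 12 libraries, each taken as its deviation from its group mean, was 0.99 for Gm10800 and Gm10801 and 0.99 for Gm10800 and Gm21738. It was 0.83 for Gm23935 and CT010467.1. For CT010467.1 it was 0.76 with Gm10800, 0.79 with Gm10801 and 0.785 with Gm21738. For CT010467.2 it was 0.38 with Gm10800, 0.41 with Gm10801, 0.23 with Gm23935 and 0.31 with CT010467.1. Without day 10 replicate 2, the first 2 values stayed at 0.99, that of Gm23935 with CT010467.1 was 0.68, and those of CT010467.2 were 0.11, 0.13, -0.15 and -0.12. Those of CT010467.1 with Gm10800, Gm10801 and Gm21738 were then 0.58, 0.60 and 0.57. These are descriptions over libraries that share depth and scaling, and rows of the same family share sequence. Without the group means removed, CT010467.2 had r of 0.63 with Gm10800 and 0.63 with Gm23935. Day 10 replicate 5 shows the difference between CT010467.2 and the other rows most plainly, with 22.9% of counts in CT010467.2 but 0.05003% in Gm10800 and 0.0144% in Gm23935, close to day 10 replicate 1.

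**Figure D4:**
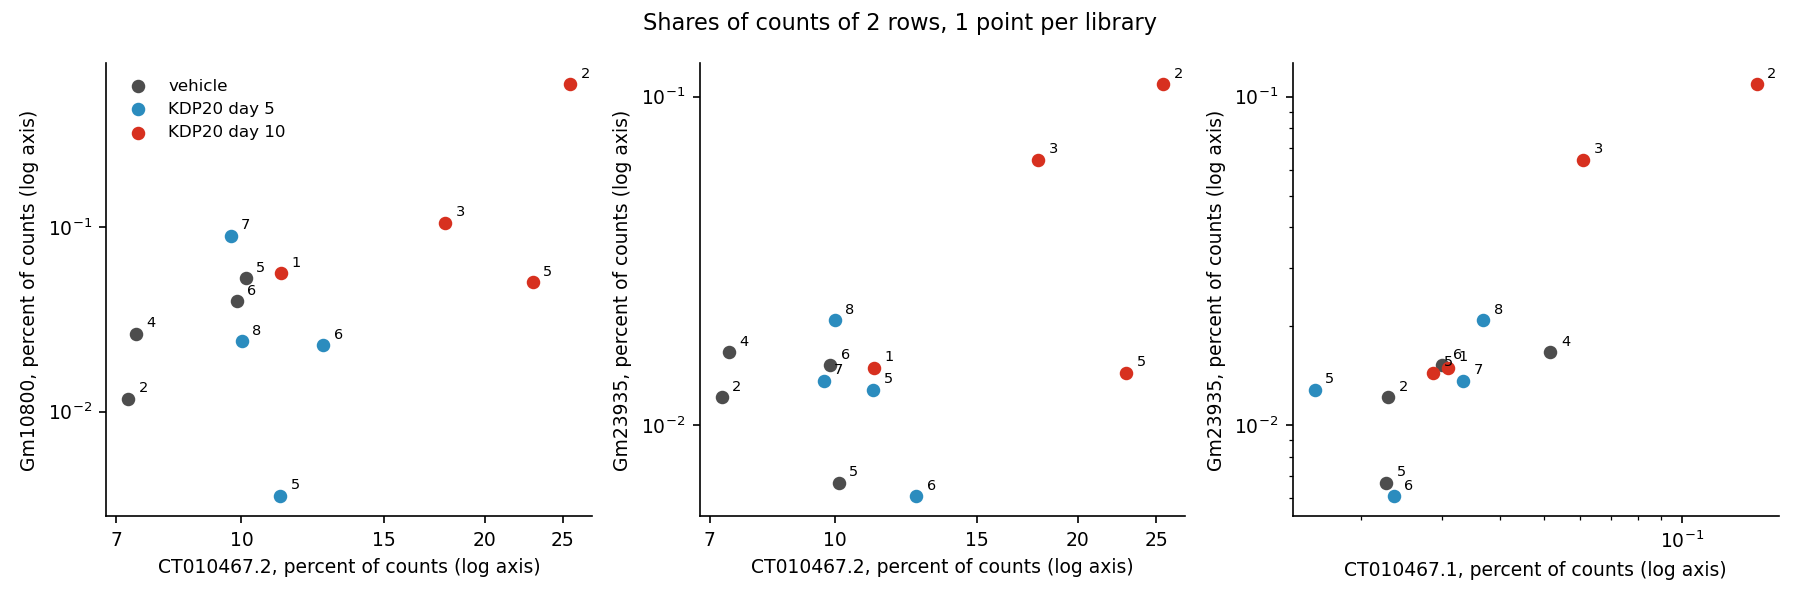
Percent of counts in Gm10800 against CT010467.2 (left), Gm23935 against CT010467.2 (middle) and Gm23935 against CT010467.1 (right), on log axes, 1 point per library, coloured by group and numbered by replicate. Day 10 replicate 5 is at 22.9% for CT010467.2 but within the vehicle range for Gm10800 and Gm23935, and in the right panel day 10 replicates 2 and 3 are the highest on both axes, with vehicle replicate 4 (0.0517%) close to replicate 3 (0.0610%) in CT010467.1.

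Day 5 against vehicle, none of the 4 rows passed the edgeR quasi-likelihood test, in which 0.41% of 13181 tested rows were called higher and 0.25% lower (Benjamini-Hochberg adjusted p under 0.05). CT010467.2 had 111880 ± 16440 CPM at day 5 and 82332 ± 18890 in vehicle (SD, n = 4), a log2 fold change of 0.44 with SE 0.21 and an edgeR adjusted p of 0.305. Its unadjusted edgeR p was 0.0486, and the 95% interval of the log2 fold change was 0.02 to 0.86. For Gm10800 the log2 fold change was 0.17, with a 95% interval of -1.14 to 1.49 and an edgeR adjusted p of 0.933. For Gm10801 it was 0.25 (-1.21 to 1.72), with an edgeR adjusted p of 0.911, and for Gm23935 0.20 (-0.68 to 1.07), with 0.880. The signs for Gm10800 and Gm10801 turned without day 5 replicate 7, to -0.85 and -0.78. DESeq2 and limma-voom called 0 of the 4 as well, and 1 of the 4 had an unadjusted edgeR p under 0.05. With intervals this wide, a change of the satellite rows by a factor of 2 in either direction was not detectable in these libraries.

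Day 10 against vehicle, the comparison named in the choice of the rows, all 4 had higher means. Over all tested rows edgeR called 3.93% higher and 3.15% lower, and nothing is read from that figure for rows chosen on this difference. CT010467.2 had 215080 ± 83120 CPM at day 10, a log2 fold change of 1.39 (SE 0.22). Gm10800 had 2277 ± 3071 against 315 ± 184 CPM, 2.86 (SE 0.71), and Gm10801 251 ± 359 against 29.8 ± 16.9 CPM, 3.09 (SE 0.72). Gm23935 had 563 ± 527 against 118 ± 38.3 CPM, 2.24 (SE 0.45). Without day 10 replicate 2 the log2 fold changes were 1.21 for CT010467.2, 1.26 for Gm10800, 1.30 for Gm10801 and 1.47 for Gm23935. The satellite values thus fell by the most, and without that library the 4 rows lay between 1.21 and 1.47.

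**Figure D5:**
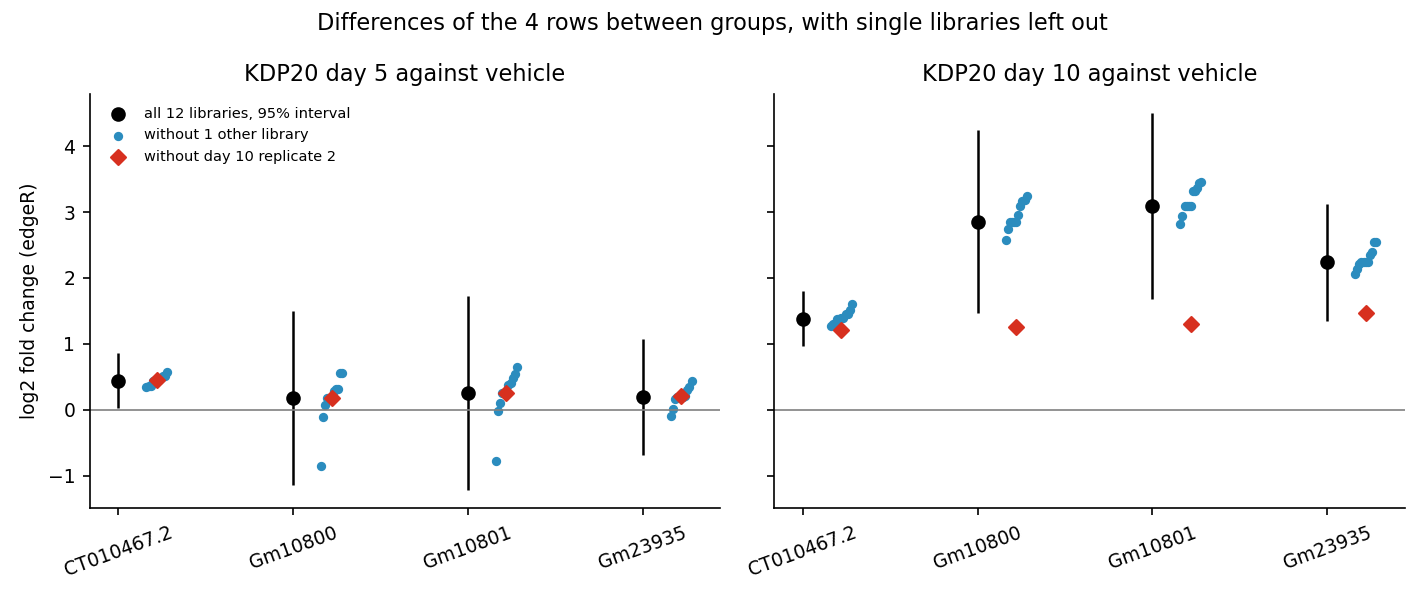
edgeR log2 fold changes of the 4 rows for day 5 (left) and day 10 (right) against vehicle, with all 12 libraries (black, 95% interval), with 1 library left out (blue) and without day 10 replicate 2 (red diamonds). In the right panel the satellite rows go from 2.86 and 3.09 to 1.26 and 1.30 without that library, and CT010467.2 from 1.39 to 1.21.

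Against day 5, which shares its day 10 libraries with the comparison just given, the log2 fold changes at day 10 were 0.94 (SE 0.21) for CT010467.2, 2.68 (SE 0.71) for Gm10800, 2.84 (SE 0.71) for Gm10801 and 2.04 (SE 0.45) for Gm23935. With 1 library left out in turn, the value of Gm10800 ran from 1.08, without day 10 replicate 2, to 3.70, and that of Gm10801 from 1.05, also without that library, to 3.87. In this comparison edgeR called 4.66% of rows higher and 5.49% lower.

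The related rows that were tested are not independent of the chosen ones, since they share sequence or locus. Of 4 tested rows in the list of other satellite rows, edgeR called 3 higher at day 10 against vehicle, Gm21738 (287 ± 405 against 47.0 ± 24.1 CPM, a log2 fold change of 2.62 with SE 0.66 and an edgeR adjusted p of 0.0202), Gm10718 (2.65, SE 0.63) and Gm10722 (2.78, SE 0.73). Gm10717 was not called (2.07, SE 0.75). Over all tested rows edgeR called 3.93% higher in that comparison. Without day 10 replicate 2 edgeR called 0 of the 4, with 1 at an unadjusted p under 0.05, and the median log2 fold change of the list went from 2.63 to 0.92, beside -0.01 over all tested rows. The calls of Gm21738, Gm10718 and Gm10722 were also lost without vehicle replicate 2 or 4, and that of Gm21738 without vehicle replicate 6, with log2 fold changes over all such fits of 0.88 to 2.94, 0.96 to 2.98 and 1.31 to 3.28. Limma-voom called 0 of 4, and DESeq2 called 0 but gave no adjusted p for 3 of them. CT010467.1 was called higher (1.31, SE 0.37, edgeR adjusted p 0.0341) and lost the call without day 10 replicate 2, with a log2 fold change of 0.52. It also lost it without day 10 replicate 3 and without vehicle replicate 2, 5 or 6 (0.52 to 1.63 over the 12 fits with 1 library left out), and in DESeq2 and limma-voom. Against day 5, edgeR called the same 3 satellite rows and CT010467.1 higher at day 10, beside 4.66% of all tested rows. None of these 4 calls held without day 10 replicate 2. The satellite calls held without each other library, and that of CT010467.1 was also lost without day 5 replicate 5 or 6 (0.61 to 1.65). In this comparison limma-voom called 2 of the 4 other satellite rows, without Gm10722, and not CT010467.1, and DESeq2 called none of these rows, with no adjusted p for 2 of the satellite rows. At day 5 edgeR called 0 of 4 other satellite rows against vehicle and 0 of 2 other ribosomal RNA rows, with 0 at an unadjusted p under 0.05 and 0 calls by limma-voom or DESeq2, which gave no adjusted p for 5 of the 6. Lars2, a mitochondrial leucyl-tRNA synthetase gene in the ribosomal list, had only 2 to 41 counts and reached 20 and 41 in day 10 replicates 2 and 3 (1.66, SE 0.64, edgeR adjusted p 0.113).

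Few of the other small structured RNAs had enough counts to test. The list of 19 names covered 23 own rows, of which 2 were tested, and edgeR, DESeq2 and limma-voom called 0 of them in any comparison. Of these, 0 had an unadjusted p under 0.05, and DESeq2 gave no adjusted p for 1 in both comparisons with vehicle. Rows opposite these RNAs, read after the values were seen, held 0.248% to 0.576% of counts, beside 0.0055% to 0.0289% in own rows. Of 2 tested opposite rows, edgeR called 1 higher at day 10 against vehicle and 1 against day 5. Over all tested rows 3.93% and 4.66% were called higher. Whether these opposite calls held with libraries left out is not given here. Rn7sk, the 7SK RNA that holds back transcription elongation, had 119 ± 43.7 CPM at day 10 against 174 ± 73.8 in vehicle, with a log2 fold change of -0.55 (SE 0.35, edgeR adjusted p 0.356). In day 10 replicate 2, where satellite rows peaked, Rn7sk had 201 counts, and it spanned 106 to 802 over the libraries. Gm23935 ran beside it in vehicle and day 5, at 0.564 to 1.26 counts per count of Rn7sk, and stood at 1.44, 9.17, 3.96 and 2.49 in day 10 replicates 1, 2, 3 and 5, a pair set side by side after the values were seen. Rows of M21 type snRNA held 0.0903% of the counts outside the 4 rows in day 10 replicate 2, and 0.103% to 0.149% in vehicle and day 5. Rows of type rRNA, CT010467.1 among them, held 0.218% against 0.0433% to 0.0900%. Most of that 0.218% was CT010467.1 itself, with 2455 counts in day 10 replicate 2, so it is no separate reading of other rRNA rows. The part of library composition in the satellite values was not tested.

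Ubtf and Bop1 were the genes for making or processing ribosomal RNA that were called at day 10 against vehicle. Of 35 listed RNA polymerase I and pre-rRNA processing genes, 21 were tested, and edgeR called 2 higher and 0 lower in that comparison, beside 3.93% higher and 3.15% lower of all tested rows. The median log2 fold change of the list was 0.15 beside -0.01 for all rows. Ubtf, the upstream binding factor of ribosomal DNA and the highest of the list, had 161 ± 35.9 against 109 ± 3.70 CPM, a log2 fold change of 0.56 (SE 0.14, edgeR adjusted p 0.0224). Bop1, needed to process the RNA of the large subunit, had 104 ± 15.5 against 68.3 ± 7.60 CPM (0.61, SE 0.15, edgeR adjusted p 0.0190), in a row that lies opposite Mroh1. Both calls were lost without day 10 replicate 2 or 5 and without vehicle replicate 2 or 4, and Ubtf also without vehicle replicate 6, with log2 fold changes of 0.41 to 0.63 for Ubtf and 0.52 to 0.69 for Bop1 over the 12 fits with 1 library left out. Against day 5, edgeR called Bop1 (0.49) and Polr1e (0.55), a polymerase I subunit, higher and Heatr1 (-0.58), a pre-rRNA processing factor whose row lies opposite Lgals8, lower. All 3 calls were lost without day 10 replicate 2, 3 or 5. Of the 12 fits with 1 library left out, that of Bop1 held only without day 10 replicate 1 (0.39 to 0.57 over the 12), that of Polr1e in 5, being lost without any day 5 replicate (0.49 to 0.58), and that of Heatr1 in 7, being lost without day 5 replicate 5 or 7 (-0.71 to -0.44). Between day 5 and vehicle, edgeR, DESeq2 and limma-voom called 0 of 21, with 1 at an unadjusted edgeR p under 0.05 and 10 with no adjusted p in DESeq2.

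The own rows of ribosomal protein genes, which are copied by RNA polymerase II, had a median below that of all rows. They held 0.104% to 0.148% of counts, beside 0.384% to 0.555% in 19 rows opposite such genes. Which strand holds the reads of these mRNAs is not settled, so the values below are those of rows. Of 79 listed genes 53 were tested in their own rows, and edgeR called 1 higher and 2 lower at day 10 against vehicle, near the 3.93% higher and 3.15% lower of all tested rows, with a median log2 fold change of -0.22 beside -0.01. Rps26 had 13.1 ± 4.73 against 27.8 ± 10.5 CPM (-1.10, SE 0.29, edgeR adjusted p 0.0232) and Rps3a1 2.98 ± 2.34 against 10.1 ± 1.92 CPM (-1.71, SE 0.49). Rpl15, in a row opposite Nkiras1, had 16.3 ± 2.16 against 8.34 ± 2.44 CPM (0.93, SE 0.28). With 1 library left out, the call of Rps26 held in 8 of 12 fits (-1.37 to -0.94), being lost without day 10 replicate 2 or 5 or vehicle replicate 2 or 6. That of Rps3a1 held in 5 (-2.20 to -1.33), being lost without day 10 replicate 2, 3 or 5 or any vehicle replicate, and that of Rpl15 in 2 (0.82 to 1.16). Rpl18, the highest of the list, was not called (0.15, SE 0.14, edgeR adjusted p 0.538). Against day 5, Rps26 was again lower (-1.14, SE 0.29, edgeR adjusted p 0.0143), a call lost without day 10 replicate 5 (-1.42 to -1.01 over the 12 fits), and edgeR called 2 of 53 higher, Rps28 and Rpl35, in calls that each held in 1 of 12 fits without a library (0.44 to 0.62 and 0.41 to 0.69). For day 5 against vehicle edgeR called 0 of 53, with 5 at an unadjusted p under 0.05, DESeq2 called 0, with no adjusted p for 40, and limma-voom 1.

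The list of 24 pericentric heterochromatin genes also holds genes of the centromere, among them Cenpa, Cenpb, Cenpc1 and Incenp. Of the 24 genes, 13 were tested, and edgeR called 1 higher and 1 lower at day 10 against vehicle. A single call of 13 in each direction is near the shares over all tested rows, 3.93% higher and 3.15% lower. The list had a median log2 fold change of 0.20 beside -0.01 for all rows. Cenpb, which binds a motif in centromeric satellite, had 25.7 ± 10.8 against 11.7 ± 5.47 CPM, a log2 fold change of 1.11 (SE 0.33, edgeR adjusted p 0.0424). Suv39h2, a histone H3 lysine 9 methyltransferase, had 87.6 ± 11.2 against 125 ± 4.31 CPM (-0.51, SE 0.14, edgeR adjusted p 0.0251), in a row opposite Dclre1c and Gm13184. Both calls were lost without day 10 replicate 2, 3 or 5 and without vehicle replicate 2, 4 or 5. That of Suv39h2 was also lost without vehicle replicate 6 (-0.60 to -0.46 over the 12 fits) and that of Cenpb without day 5 replicate 6 or 7 (0.90 to 1.42). The median of the list was 0.02 without day 10 replicate 2. Lrwd1, the highest of the list, was not called (0.05, SE 0.14, edgeR adjusted p 0.879). Against day 5 edgeR called 0 of 13, with 2 at an unadjusted p under 0.05, and limma-voom and DESeq2 also 0. Day 5 against vehicle, edgeR, DESeq2 and limma-voom called 0 of 13, again with 2 at an unadjusted edgeR p under 0.05, and DESeq2 gave no adjusted p for 8.

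Read through the rows on the opposite strand, a reading added after the values were seen, the 3 gene lists gave few calls against vehicle. Against day 5 more rows were called, most of them lower and opposite ribosomal protein genes. At day 10 against vehicle, edgeR called 0 of 8 tested rows opposite RNA polymerase I and processing genes, 0 of 16 opposite ribosomal protein genes, and 1 of 7 opposite heterochromatin genes, namely Gm37500, opposite Setdb1 (log2 fold change 1.08, SE 0.28, edgeR adjusted p 0.0239). Over all tested rows 3.93% were called higher in that comparison. The call of Gm37500 was lost without day 10 replicate 2 or 5 and without vehicle replicate 2, 4 or 6 (0.97 to 1.19). At day 5 against vehicle edgeR called 1 row higher in these lists, Tlcd1, opposite Rpl23a (0.53, SE 0.12), in 6 of 12 fits with 1 library left out. Over all tested rows 0.41% were called higher there. Against day 5, edgeR called 3 rows higher, Gm16066, opposite Kmt5b (0.74, SE 0.17), Dnmt3aos, opposite Dnmt3a (0.72, SE 0.20), and Mroh1, opposite Bop1 (0.58, SE 0.16), of which Gm16066 held in all 12 fits and the other 2 in 7 each. They were 2 of 7 rows opposite heterochromatin genes and 1 of 8 opposite RNA polymerase I and processing genes, beside 4.66% of all tested rows. Also against day 5, 5 of 16 rows opposite ribosomal protein genes were called lower, beside 5.49% of all tested rows. They were Nkiras1, opposite Rpl15 (208 ± 64.4 against 356 ± 7.12 CPM, -0.77, SE 0.15, edgeR adjusted p 0.00366), Wdr38, opposite Rpl35 (-0.52, SE 0.12), Dipk1a, opposite Rpl5 (-0.65, SE 0.16), Cand2, opposite Rpl32 (-0.63, SE 0.18), and Tlcd1 (-0.38, SE 0.12). Nkiras1 also lies opposite Ube2e1, Gm16066 opposite Chka, and Tlcd1 opposite Snord4a and Snord42a. Which opposite gene, if any, these rows read is not settled. The calls of Nkiras1 and Wdr38 held in all 12 fits without a library, and that of Dipk1a in 11, being lost without day 10 replicate 2 (-0.56). That of Cand2 held in 6 of the 12 (-0.83 to -0.49) and that of Tlcd1 in 4 (-0.42 to -0.35). At Rpl35 and Wdr38 the rows of the opposite strands were called in opposite directions, and which of them holds the reads of the mRNA is not settled.

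No marker of other cells was called higher at day 10 against vehicle in its own row. The summed share of the 15 blood and immune markers is almost all Alas2, a gene of haem synthesis opposite Apex2, with 179 to 612 counts, while the others had at most 21 each, so it is no reading of these cells as a whole. They held 0.0162% to 0.0208% of counts in vehicle, 0.0145% to 0.0169% at day 5 and 0.0111% to 0.0182% at day 10, with 0.0121% in day 10 replicate 2, and edgeR called 0 of 2 tested, with 1 at an unadjusted p under 0.05 and 0 calls by DESeq2 and limma-voom. The 11 muscle, cartilage and bone markers held 0.0141% to 0.0316%, 0.0184% to 0.0411% and 0.00761% to 0.0214%, with 0.0201% in that library, and edgeR, DESeq2 and limma-voom called 0 of 4 tested, with 1 at an unadjusted edgeR p under 0.05. The 19 nasal epithelium markers held 0.102% to 0.160%, 0.0810% to 0.155% and 0.0696% to 0.103%, with 0.0874% in that library. Of 16 tested in their own rows, edgeR called 0 higher and 1 lower at day 10 against vehicle, beside 3.93% and 3.15% of all tested rows. The call was that of Obp2a, an odorant-binding protein (179 ± 103 against 466 ± 180 CPM, a log2 fold change of -1.38 with SE 0.37). It held in 7 of 12 fits with 1 library left out. Against day 5 edgeR called Obp2a (-1.33, SE 0.37) and Acan, of cartilage (-1.78, SE 0.49), lower and Muc5b higher (0.40, SE 0.13), in 9, 8 and 3 of the 12 fits. That was 1 of 16 nasal markers lower, 1 of 16 higher, and 1 of 4 muscle, cartilage and bone markers lower. Over all tested rows 4.66% were called higher and 5.49% lower there. Rows opposite markers often held more reads than the markers, such as Mppe1, opposite Gnal, with 2928 to 13354 counts against 149 to 463. At day 10 against vehicle edgeR called lower Mppe1 (-0.53, SE 0.15) and Gm11505, opposite Mpo (-4.59, SE 0.99), in 5 and 11 of the 12 fits. They were 1 of 5 tested rows opposite nasal markers and 1 of 3 opposite blood and immune markers, beside 3.15% of all tested rows. Gm44323, opposite Krt5, was called higher at day 5 against vehicle (0.94, SE 0.22), in 4 of the 12 fits. It was 1 of 5 tested rows opposite nasal markers, beside 0.41% of all tested rows. Against day 5 Gm15883 (-0.45, SE 0.13) and Gm11505 (-4.89, SE 0.97) were called lower at day 10, in 7 and 12 of the 12 fits. These were again 1 of 5 and 1 of 3 tested rows, beside 5.49% of all tested rows. Gm11505 was near the floor, at 0.43 ± 0.29 CPM at day 10, 11.8 ± 8.61 in vehicle and 14.7 ± 13.6 at day 5. Both of its calls were lost in limma-voom. The part of these cells in the values of the repeat rows was not tested. In bulk tissue, fewer cells of a type and less RNA per cell cannot be told apart.

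Over the 12 libraries, the rows whose log2 CPM was most like that of CT010467.2, among the 4612 tested rows whose mean log2 CPM reached 5, were Smarcd3 (Pearson r 0.98), Gm44878, Klc3, Gm42596, Pprc1, Gm28529, Gm28731 and Ercc2 (0.97). Smarcd3, a subunit of the SWI/SNF chromatin remodeller whose row lies opposite Chpf2, had 574 ± 37.3, 681 ± 36.6 and 827 ± 143 CPM in vehicle, day 5 and day 10. Pprc1, a transcriptional coactivator opposite Ldb1, had 99.5 ± 12.5, 116 ± 11.5 and 176 ± 51.9. Klc3, a kinesin light chain, and Ercc2, a DNA repair helicase, lie opposite each other. The rows that ran most against CT010467.2 were Gm18899 (r -0.95), Pcf11 (-0.95), Gm48913 and Gm48708. Pcf11, of the complex that ends transcripts, had 157 ± 14.7, 144 ± 11.1 and 89.8 ± 27.0 CPM. Group means were not removed for these r, so differences between groups enter them. They cannot be set beside the values given above as deviations from group means. These likenesses are a description over libraries that share depth and scaling, and a row that takes up to 25.5% of a library shares its total with every other row.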

How the data were processed

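Per the labels, total RNA of nasal tissue was made into libraries with a SMARTER mRNA-Seq kit. Per the submitters' processing notes, FastQC, Trim Galore, STAR, HTSeq and mm10 were used; these sources give neither versions nor the strand setting. The deposited values are whole-number counts per gene that the authors made, with no normalization. All 12 columns were matched to samples by title.

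Rows with enough counts (13181 of 55487, holding 98.3% of counts) were fitted with edgeR 4.0.16 (R 4.3.3; TMM, filterByExpr, quasi-likelihood F test, group as the only term, Benjamini-Hochberg adjusted p under 0.05). The common biological coefficient of variation was 0.213. DESeq2 1.42.0, limma-voom (limma 3.58.1), other scalings and filters, a replicate block and fits without each library were alternatives. The scripts were tested on simulated data. Intervals of log2 fold changes are the estimate ± its SE scaled to 95%, and Wilson intervals cover counting error only. Shares are not corrected for length, and the plan named 6 rows where 4 could be summed. Positions and sequences come from GENCODE M21.

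Rows and lists were chosen with earlier results of these data known. Named from each gene list were up to 4 called genes with the smallest p and the highest in level; the 8 rows most like CT010467.2 and the 4 least like it were named as well. Opposite rows, which share at least 50 exon bases with a listed gene on the other strand, were read after the values were seen.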

Additional observations from a re-analysis of the deposited data

Results flagged for a closer look

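Among 4 day 10 libraries, replicate 2 lay so far above the other 3 in the share of counts of 4 satellite measures that its gap to the nearest library, divided by the range of the group, passed the 95% critical value of Dixon's test. Gm10800 held 0.593% of its counts (gap over range 0.898) and Gm10801 0.0679% (0.882). The 11 other satellite rows summed to 0.114% (0.939), of which Gm21738 alone held 0.0772% (0.943). Gm10800 and Gm10801 were chosen for their day 10 rise, which this library carries, so these values describe it and test nothing. Chance passes this value in about 1 in 20 groups and 21 groups were looked at, and the 4 measures share sequence and the same library, so they count as 1 observation. CT010467.2 and Gm23935 did not pass it in any group.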

How the results depend on the processing

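The share of counts in CT010467.2 and in the 4 rows kept its direction in each fit: day 10 minus vehicle was 10.7 and 10.95 points (8.68 to 13.5 and 8.74 to 13.8 with 1 library left out), and day 5 minus vehicle 2.22 points for both (1.63 to 2.70 and 1.64 to 2.71). The day 10 log2 fold changes of the 4 rows stayed above 0 in every alternative, but without day 10 replicate 2 Gm10800 and Gm10801 had 1.26 and 1.30 against vehicle. The rows were picked with their day 10 rise in view, so a kept direction at day 10, in shares or fold changes, tests nothing. Day 5 against vehicle, signs turned for Gm10800 and Gm10801 in limma-voom (-0.35 and -0.29), without vehicle replicate 2 (-0.11 and -0.02) and without day 5 replicate 7 (-0.85 and -0.78), and for Gm23935 without day 5 replicate 8. With 1 library left out the range was -0.85 to 0.56 for Gm10800, -0.78 to 0.65 for Gm10801 and -0.095 to 0.43 for Gm23935. CT010467.2 was called at day 5 in 1 alternative, with no filter on low rows (0.45). Deviations from the group mean had correlations of -0.089 to 0.124 between same-numbered libraries of different groups. Libraries with different numbers were not compared, so whether the numbers pair the samples is not settled. With a replicate block Gm10800 and Gm10801 had -1.79 and -1.38 day 5 against vehicle, and Gm10800 4.94 day 10 against day 5. Rows called at day 10 against vehicle numbered 933, against 1701 with the replicate block, 423 with the 8 compared libraries alone and 95 to 2684 with 1 library left out. Day 5 against vehicle, 87 became 278 with no filter, 135 with a filter of 10 CPM, 33 with the replicate block, 511 in DESeq2, 284 in limma-voom, 656 with the 8 libraries alone and 5 to 569 with 1 library left out. Day 10 against day 5, 1337 became 623 to 2689. The causes were not tested. Totals of 1658420 to 3227138 counts leave Gm10801 with 8 counts in its lowest library.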
